A study of Mus musculus with 4 samples.

Results

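Gata2, Gata3, Gata4, Gata5 and Gata6, the 5 autosomal members of the GATA family of zinc finger transcription factors, were examined among the 22380 protein-coding genes annotated by GENCODE vM1 on mouse genome build mm9. They were chosen by name as lineage regulators that mouse embryonic stem (mES) cells keep silent or low. For each gene, all peaks of 4 deposited lists that lay within 100 kb of any annotated transcription start site (TSS) were collected, with their distance, position in the gene and reads. The libraries held no RNA, so neither the silence of the Gata genes nor the identity of the cells could be checked against marker genes with these data.

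The study asked where Dzip3 and Ring1B, both ubiquitin ligases for lysine 119 of histone H2A (H2AK119), bind the mES cell genome and where the ubiquitylated histone (ubH2A) lies. Chromatin of wild-type E14 mES cells (strain 129/Ola, passage 3-5), without feeders, was immunoprecipitated with rabbit antibodies against Dzip3, Ring1B or ubH2A that the laboratory had raised, and input DNA served as the control. All 4 libraries shared 1 culture condition, N2B27 medium with 1 µM PD0325901 and 3 µM CHIR99021 (inhibitors of Mek and Gsk3, together 2i) and 1000 U/ml LIF, and fixation for 10 min in 1% formaldehyde. The sample descriptions name a Picoruptor for the shearing, whereas the study's methods describe micrococcal nuclease. E14 is 1 established line, and no knockdown or differentiated sample belongs to these 4 libraries.

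GATA factors bind DNA at GATA motifs and open the programs of particular lineages. Gata2 and Gata3 act in blood stem cells, T lymphocytes, trophoblast and parts of the nervous system, whereas Gata4, Gata5 and Gata6 act in heart, gut and extraembryonic endoderm. In pluripotent cells such genes are well-known targets of the polycomb group proteins: polycomb repressive complex 1, whose catalytic subunit is Ring1B, places ubiquitin on H2AK119 over the CpG-rich promoters of silent developmental genes.

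There was 1 library per target, so no value below has a replicate error and no difference was tested. Intervals are 95% intervals and cover counting error only, and reads that share a polymerase chain reaction origin are not independent molecules. The library sizes implied by the deposited values were between 48.3 and 67.0 M reads, and the lists held between 6482 and 10119 peaks. At this depth the lowest peak stood on 31 extended reads in the Ring1B list, 33 in the Dzip3 list, 32 in the ubH2A list and 15 in the input list. These are the lowest counts among called peaks and set no upper limit for other loci. A locus without a peak can hold as many reads as a called one and may still be bound.

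To show the DNA behind some of the Ring1B and Dzip3 peaks described below, 150 bases of 6 peaks are given from the mm9 plus strand, 5′ to 3′, each window inside the peak and outside every annotated exon, with CpG dinucleotides in capitals. The first 3 come from Ring1B peaks near a TSS of Gata2, Gata4 and Gata5, where 16, 9 and 17 CpGs stood in the 150 bases. The Gata2 peak is intronic, and the windows of the 2 Gata2 peaks over a TSS, not shown, held 18 and 10. The remaining 3 come from 3 of the 4 Dzip3 peaks farther out around Gata2 and Gata3, and these windows held 2, 4 and 12. A window need not be typical of its peak. In the same order, the whole Ring1B peaks held 47 CpGs in 618 bp, 13 in 270 bp and 31 in 392 bp. The whole Dzip3 peaks held 2 in 329 bp, 4 in 200 bp and 15 in 301 bp. No such window is shown for Gata3 promoter peaks, where exons left no stretch of this length.
Gata2 Ring1B, chr6:88147237-88147386: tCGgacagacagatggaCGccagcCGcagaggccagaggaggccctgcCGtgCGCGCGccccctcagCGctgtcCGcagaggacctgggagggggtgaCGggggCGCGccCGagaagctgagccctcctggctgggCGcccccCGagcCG
Gata4 Ring1B, chr14:63864331-63864480: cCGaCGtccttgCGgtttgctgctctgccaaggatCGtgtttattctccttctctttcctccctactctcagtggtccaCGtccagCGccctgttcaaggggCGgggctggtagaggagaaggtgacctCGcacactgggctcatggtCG
Gata5 Ring1B, chr2:180069429-180069578: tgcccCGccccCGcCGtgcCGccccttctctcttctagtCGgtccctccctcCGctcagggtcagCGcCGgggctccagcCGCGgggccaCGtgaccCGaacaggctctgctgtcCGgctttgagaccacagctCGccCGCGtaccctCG
Gata2 Dzip3, chr6:88199584-88199733: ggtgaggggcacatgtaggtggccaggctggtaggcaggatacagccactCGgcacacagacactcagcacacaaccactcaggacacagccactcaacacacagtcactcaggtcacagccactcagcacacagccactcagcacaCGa
Gata2 Dzip3, chr6:88202618-88202767: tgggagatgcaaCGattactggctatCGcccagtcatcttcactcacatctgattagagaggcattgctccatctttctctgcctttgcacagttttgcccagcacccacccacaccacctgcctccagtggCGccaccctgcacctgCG
Gata3 Dzip3, chr2:9852325-9852474: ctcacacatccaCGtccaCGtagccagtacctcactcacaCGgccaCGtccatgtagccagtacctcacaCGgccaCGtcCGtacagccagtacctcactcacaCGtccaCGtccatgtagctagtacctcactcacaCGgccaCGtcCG

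Ring1B peaks lay at the promoters of all 5 Gata genes, whereas Dzip3 and ubH2A peaks were found only at 40.6 kb or more from a Gata TSS and at part of the genes. Of 39 peaks within 100 kb, 32 came from the Ring1B list, 4 from the Dzip3 list, 3 from the ubH2A list and 0 from the input list. A Ring1B peak within 100 kb was present at 50.3% of protein-coding genes, so the distance matters for reading the count. Within 4 kb of a TSS, the window often used for promoters, 5 of 5 Gata genes had a Ring1B peak against 10.0% of all protein-coding genes. Every Gata gene still had at least 1 Ring1B peak within 1 kb of a TSS, and these made up 12 of the 32 peaks.

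A Dzip3 peak lay within 100 kb of 2 of the 5 genes, Gata2 and Gata3, and 36.4% of all protein-coding genes had one, so this count is near the background. The same holds for ubH2A, with peaks near 2 of the 5 genes, Gata5 and Gata6, against 39.1% of the 18414 genes on chromosomes where that list was complete. No input peak lay within 100 kb of any Gata gene, where 21.0% of 17710 genes had one. Within 10 kb of a TSS, 28 Ring1B peaks remained and the counts of Dzip3 and ubH2A peaks were 0, and among all genes a Dzip3 peak this near was found at 6.37%, a ubH2A peak at 6.73% and an input peak at 2.96%. Within 4 kb these shares were 3.13%, 3.29% and 1.31%, again with 0 of the 5 Gata genes.

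**Figure D1:**
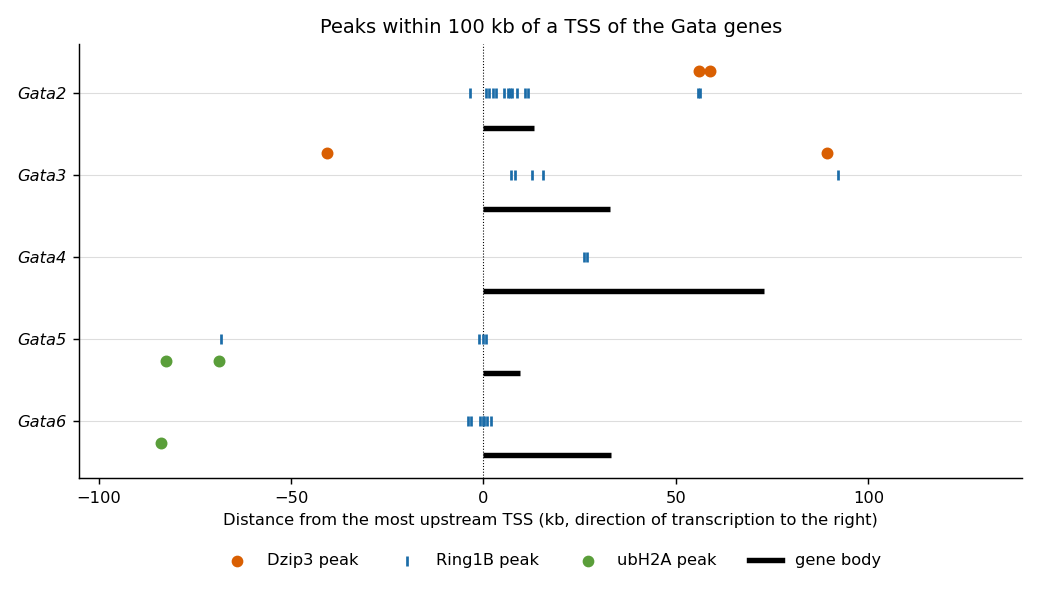
Positions of the 39 peaks around the 5 Gata genes, in kb from the most upstream TSS with transcription to the right; blue ticks are Ring1B peaks, orange circles Dzip3 peaks, green circles ubH2A peaks and black bars the gene bodies. Ring1B ticks gather over the start of each gene body, or inside it at Gata3 and Gata4, and all 7 circles stand at least 40.6 kb away from any Gata TSS.

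Gata2, a regulator of blood stem and progenitor cells (chr6:88143885-88157024, plus strand), carried the most Ring1B peaks, 14 within 100 kb and 12 within 10 kb. The 12 stretched over 15.3 kb, from upstream of the first TSS into the late coding exons, and covered 42.0% of that stretch. At least 12 peaks within 10 kb of a TSS were found at 24 of the 22380 protein-coding genes (0.107%). Both annotated start sites of Gata2, at 88143885 and 88148658, lay inside a Ring1B peak. The tallest, chr6:88148572-88149876, spanned the downstream TSS and reached into the coding exons, with a summit of 1.72 RPM (extended reads scaled to library size). It held 612 Ring1B, 53 Dzip3, 54 ubH2A and 5 input reads. After scaling each library to its size and adding 1 read to each, Ring1B was 95.3-fold over input (interval 48.7 to 353), Dzip3 8.16-fold (3.87 to 30.8) and ubH2A 6.60-fold (3.14 to 24.9). The Ring1B peaks were called from the Ring1B reads themselves, so their Ring1B excess describes the peak and is no finding. The Dzip3 and ubH2A reads took no part in calling them. Each list gives a p-value against input, so input reads may have entered the call, which the study's methods leave unsaid. The peak over the first TSS, chr6:88143768-88145051, held 475 Ring1B, 41 Dzip3, 38 ubH2A and 22 input reads, the highest input count of the 32 Ring1B peaks, and its Ring1B excess over input was 19.3-fold (13.1 to 32.5). The intronic stretch printed above for Gata2 comes from chr6:88146796-88147414, 1.24 kb upstream of the second TSS, with 287 Ring1B and 19 Dzip3 reads.

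Gata3, needed for T lymphocytes and trophoblast (chr2:9778705-9811661, minus strand), had 5 Ring1B peaks within 100 kb and 4 within 10 kb, spread over 8.96 kb of which they covered 22.7%. At least 4 such peaks were found at 1.62% of protein-coding genes. None of the 6 annotated start sites of Gata3 lay inside a Ring1B peak. The start farthest upstream, at 9811661, was 6.70 kb from the nearest one, and the start at 9800227 was 0.821 kb from the tallest. That peak, chr2:9798824-9799406 over a coding exon of Gata3 and an exon of Gm13256, rose to 1.84 RPM and held 316 Ring1B, 8 Dzip3, 26 ubH2A and 5 input reads. Here Ring1B was 49.3-fold over input (25.0 to 183) and ubH2A 3.24-fold (1.42 to 12.5), while the interval of Dzip3 over input, 0.418 to 5.64, included 1. A neighbouring peak, chr2:9803229-9803571, held more Dzip3 than ubH2A, with 49 Dzip3, 18 ubH2A and 14 input reads beside 124 of Ring1B. This peak and chr2:9804106-9804966 overlap exons of 4930412O13Rik, whose TSS is 2652 bp from one of Gata3, and reads at such overlapping genes cannot be assigned to either. Counting each peak only for the nearest protein-coding gene left 3 Ring1B peaks for Gata3. These include the distant chr2:9719402-9719641, 75.7 kb downstream, and leave out the peaks at chr2:9803229-9803571 and chr2:9804106-9804966.

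Gata4, a regulator of heart and endoderm (chr14:63817759-63890529, minus strand), had the smallest Ring1B domain, 2 peaks on either side of its central start sites. At least 2 peaks within 10 kb were found at 4.98% of protein-coding genes. The 3 start sites between 63864085 and 63864108 lay 0.218 to 0.241 kb from the nearer peak, whereas the start at 63890529 and the one at 63832444 were 25.9 kb and 31.0 kb from any Ring1B peak. The taller peak, chr14:63863431-63863824 in an intron, reached 0.850 RPM and held 109 Ring1B, 5 Dzip3, 26 ubH2A and 7 input reads. Ring1B exceeded input there 12.8-fold (6.82 to 37.0), and the interval of Dzip3 over input, 0.162 to 2.37, included 1. In the other peak, chr14:63864326-63864596, from which the Gata4 sequence above is taken, 77 Ring1B reads stood against 12 of Dzip3, 13 of ubH2A and 1 of input. The nearest Dzip3 peak to a Gata4 TSS was 1631 kb away, the most distant of the 5 genes.

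Gata5, active in heart and gut endoderm (chr2:180059838-180069404, minus strand), had 3 Ring1B peaks within 10 kb over 2.21 kb. At least 3 were found at 2.51% of protein-coding genes. One of them, chr2:180069296-180069688, spanned the upstream TSS with 135 Ring1B, 17 Dzip3, 33 ubH2A and 2 input reads and gave the Gata5 sequence above. The tallest, chr2:180068442-180069163, began 0.096 kb downstream of the second TSS, reached 0.908 RPM and held 259 Ring1B, 28 Dzip3, 30 ubH2A and 8 input reads. In it Ring1B was 27.0-fold (15.1 to 70.7), Dzip3 2.92-fold (1.41 to 8.06) and ubH2A 2.48-fold (1.21 to 6.82) over input. All 3 peaks lie over or within the overlapping gene Gm14318, whose TSS is 1697 bp from one of Gata5.

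Gata6, which directs primitive endoderm and heart (chr18:11052508-11085633, plus strand), had the tallest and widest Ring1B peak of the family. Its 7 Ring1B peaks lay within 10 kb of its single annotated TSS, covering 57.6% of 7.10 kb, and at least 7 were found at 0.572% of protein-coding genes. The tallest, chr18:11053613-11055433 over coding and untranslated exon sequence, began 1.11 kb downstream of the TSS, was 1820 bp long, reached 2.30 RPM and held 1075 Ring1B, 82 Dzip3, 69 ubH2A and 6 input reads. Scaled in the same way, Ring1B was 143-fold over input (76.6 to 457), Dzip3 10.8-fold (5.46 to 34.7) and ubH2A 7.20-fold (3.62 to 23.4). The nearest peak began 0.013 kb downstream of the TSS, with 161 Ring1B, 18 Dzip3, 12 ubH2A and 0 input reads, so that Ring1B was at least 50.1-fold higher than input at a floor of 3 input reads in that library. Of the 4 peaks upstream, 3 lie over exons of the annotated gene 1010001N08Rik.

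**Figure D2:**
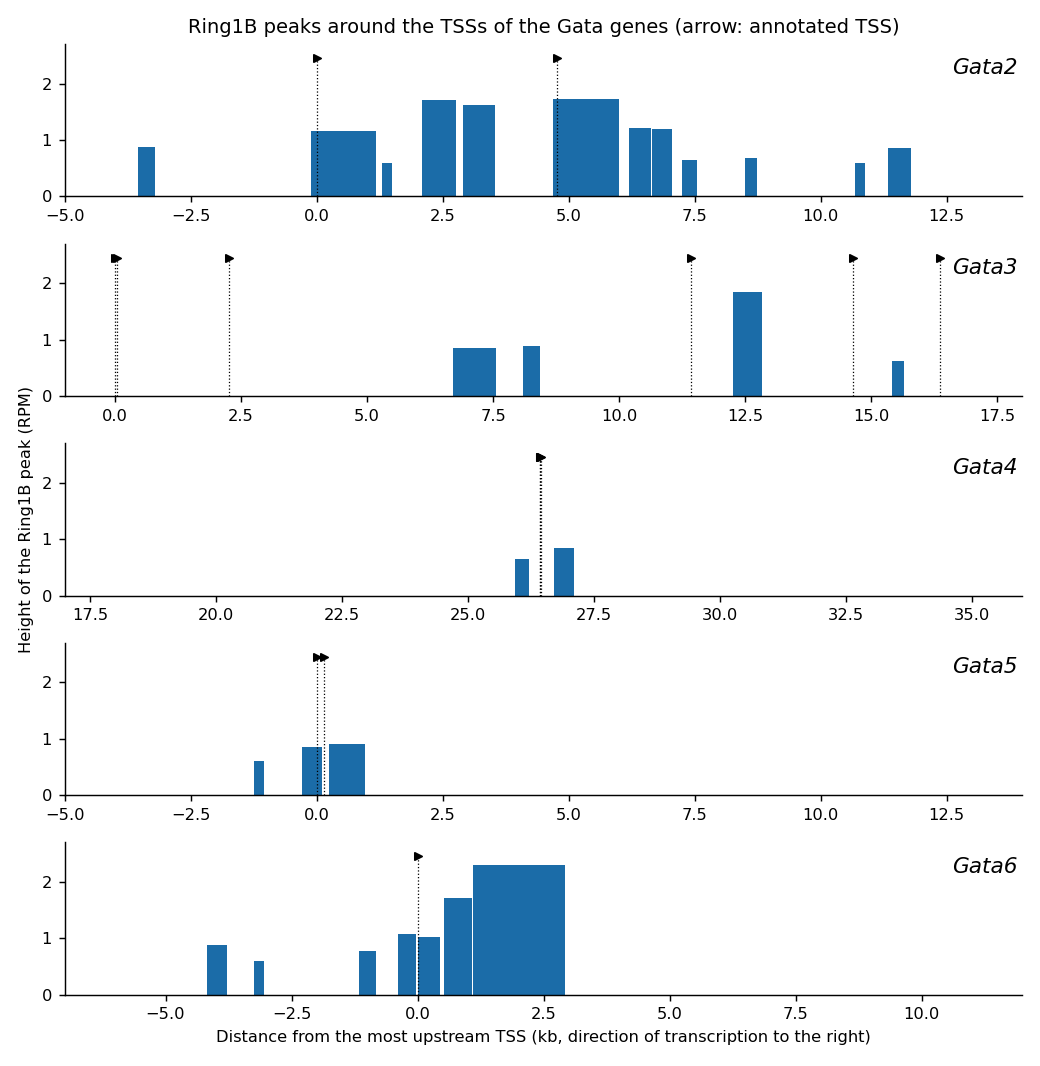
Ring1B peaks around the TSSs of the 5 genes; the horizontal axis gives the distance in kb from the most upstream TSS along transcription, the height of each bar its summit in RPM and the width its length, and arrows mark annotated TSSs. The tallest bars are at Gata6 (2.30 RPM), Gata3 (1.84 RPM) and Gata2 (1.72 RPM), and no bar at Gata4 or Gata5 exceeds 0.908 RPM.

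Of the 28 Ring1B peaks within 10 kb of a Gata TSS, 13 lay downstream of the nearest TSS, 12 upstream and 3 across it. Relative to the exons of the Gata gene itself, 10 touched coding sequence, 3 touched untranslated exon parts alone, 9 were intronic and 6 lay outside the gene. Ring1B peaks were thus not limited to the start sites and reached far into the gene body of Gata2. Of 11 other protein-coding genes with a TSS within 100 kb of a Gata TSS, 3 had a Ring1B peak within 4 kb, where the background was 10.0%. A Dzip3 peak lay there at 0 of the 11, near the background of 3.13%. The 3 were 4930412O13Rik and 9230102O04Rik next to Gata3 and Gm14318 next to Gata5, which share the Gata peaks.

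The reads over all Ring1B peaks within 10 kb put the genes in the order Gata6, Gata2, Gata3, Gata5 and Gata4. Ring1B density was 9.19 RPM per kb of peak at Gata6, 7.80 at Gata2, 7.39 at Gata3, 6.65 at Gata5 and 5.42 at Gata4. Single peaks ranged from 6.06 to 11.4 at Gata6, from 4.76 to 9.93 at Gata2, from 5.84 to 10.5 at Gata3, from 5.60 to 6.94 at Gata5 and from 5.36 to 5.51 at Gata4. The ranges of neighbours in this order overlapped, except that the 2 Gata4 peaks, at up to 5.51, were just below the 3 of Gata5. Both Gata4 peaks lay inside the range of Gata2. The order thus does not separate the 5 genes beyond the spread between peaks, and the peaks were called from these same reads. Over all 4904 Ring1B peaks within 10 kb of a protein-coding TSS the median density was 6.18 RPM per kb, which lies inside the family's range.

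Dzip3 reads over the same peaks were few but above input at 4 of the 5 genes, at Gata3 largely through 1 peak. The Dzip3 library gave 318 reads at Gata2, 91 at Gata3, 17 at Gata4, 58 at Gata5 and 165 at Gata6, and the input library 70, 40, 8, 12 and 21 in the same order. Dzip3 was thus 6.84-fold over input at Gata6 (4.51 to 11.8), 4.11-fold at Gata5 (2.33 to 8.97), 4.07-fold at Gata2 (3.17 to 5.41) and 2.03-fold at Gata3 (1.41 to 3.07). At Gata3, chr2:9803229-9803571 alone held 49 of the 91 Dzip3 and 14 of the 40 input reads, and it overlaps an exon of 4930412O13Rik. The other Gata3 peaks held 16, 8 and 18 Dzip3 reads beside 9, 5 and 12 of input. At Gata4 the ratio was 1.81, and its interval of 0.788 to 5.16 included 1. Peak by peak, Dzip3 over input had a median of 3.36 over the 28 Gata promoter peaks and of 4.53 over all Ring1B peaks within 10 kb of a protein-coding TSS. Both sets were called from Ring1B reads, and input reads may have entered the call. None of the libraries used a control antibody, so whether the excess is specific to Dzip3 was not tested.

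The ubH2A library, which reads the ubiquitylated histone whichever ligase placed it, gave 409 reads at Gata2, 85 at Gata3, 39 at Gata4, 70 at Gata5 and 151 at Gata6. It was 4.98-fold over input at Gata6 (3.27 to 8.61), 4.16-fold at Gata2 (3.26 to 5.51), 3.94-fold at Gata5 (2.26 to 8.52), 3.20-fold at Gata4 (1.62 to 8.70) and 1.51-fold at Gata3 (1.04 to 2.29). All 5 intervals lay above 1, although no ubH2A peak was called within 10 kb of any of the genes. At Gata3 the excess came largely from chr2:9798824-9799406, with 26 ubH2A and 5 input reads. The other Gata3 peaks held 21, 18 and 20 ubH2A reads beside 9, 14 and 12 of input. Peak by peak the median of ubH2A over input was 3.44, against 4.14 over all Ring1B peaks near protein-coding TSSs. The excess at the Gata genes is thus not particular to them. As for Dzip3, whether it is specific to the antibody was not tested. Between ubH2A and Dzip3 the scaled ratio was 1.77 at Gata4 (1.01 to 3.44) and 0.728 at Gata6 (0.579 to 0.912), and its interval included 1 at Gata2, Gata3 and Gata5.

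**Figure D3:**
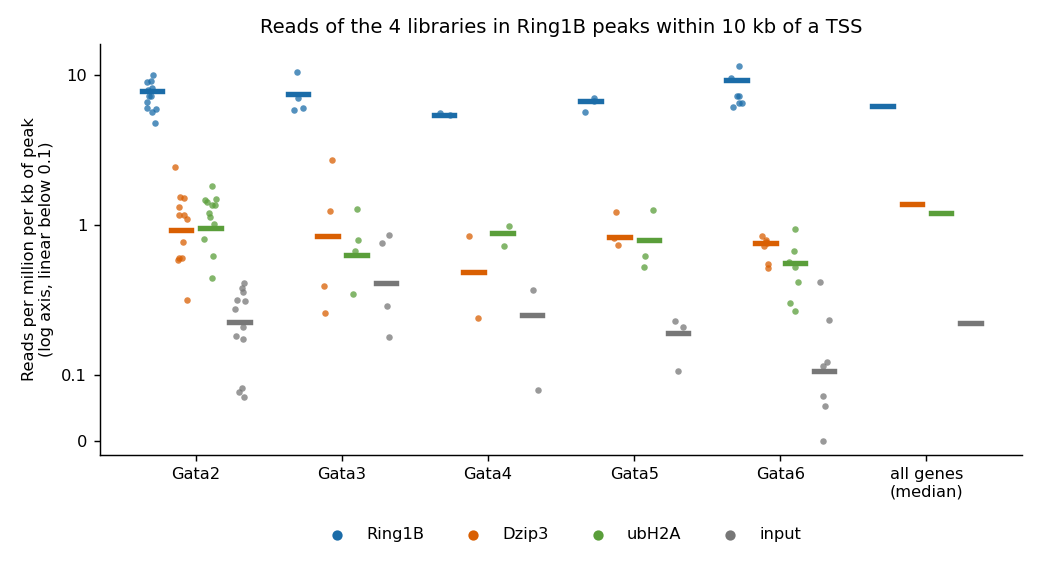
RPM per kb of peak (log axis, linear below 0.1) of the 4 libraries in the Ring1B peaks within 10 kb of each Gata gene; points are single peaks, bars the sum over a gene's peaks, and the last group the median over all 4904 Ring1B peaks within 10 kb of a protein-coding TSS. Ring1B bars lie between 5.42 and 9.19, while the Dzip3 and ubH2A bars of all 5 genes lie below 1.

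The balance of Ring1B and Dzip3 reads in these peaks is given as a description, since the peaks were called from Ring1B reads and the direction of the balance follows from that choice. Summed over the peaks of a gene, Ring1B was 12.1-fold over Dzip3 at Gata6 (10.3 to 14.3), 10.7-fold at Gata4 (6.85 to 19.7), 8.69-fold at Gata3 (7.06 to 11.0), 8.38-fold at Gata2 (7.48 to 9.47) and 7.90-fold at Gata5 (6.09 to 10.7). The median over the 28 single peaks was 8.80, beside 4.43 over all Ring1B peaks within 10 kb of a protein-coding TSS and 2.35 over all 10119 Ring1B peaks. All these sets were called from Ring1B reads. The median Ring1B density was 6.80 RPM per kb in the 28 peaks and 6.18 in all Ring1B peaks near protein-coding TSSs, and the median Dzip3 density was 0.776 and 1.37 RPM per kb. Single Gata peaks ranged from 0.239 to 2.69 RPM per kb in Dzip3, so both medians lie inside the range of the family.

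Called Dzip3 peaks were absent from the Ring1B peaks at the Gata promoters. Of the 28 Ring1B peaks within 10 kb of a Gata TSS, 0 overlapped a Dzip3 peak (Wilson interval 0% to 12.1%), and 0 overlapped a ubH2A peak. Among all Ring1B peaks within 10 kb of a protein-coding TSS, 15.3% were overlapped by the Dzip3 list, 16.4% by the ubH2A list and 8.67% by the input list, and input peaks too overlapped 0 of the 28. Adding the 4 more distant peaks, 1 of 32 Ring1B peaks near the Gata genes overlapped a Dzip3 peak (3.13%, Wilson interval 0.554% to 15.7%), where 32.5% of all Ring1B peaks did. Peaks of 1 gene are neighbours on 1 chromosome and share their chromatin, so these 32, and the 28 among them, are not independent draws. Both intervals treat them as such and are too narrow to be set against the shares over all peaks.

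The distant peaks are described next. Each was called from the reads of its own library, so the excess of that library describes the peak and is no finding. The reads obtained with the other antibodies took no part in the call, whereas input reads may have. Gata2 had a cluster 50.9 to 54.0 kb downstream of its second TSS, outside annotated genes and nearest to Dnajb8, a chaperone gene. The Dzip3 peak chr6:88199584-88199913 held 70 Dzip3, 73 Ring1B, 81 ubH2A and 4 input reads, and a Ring1B peak covered 59.9% of it. Scaled, Dzip3 was 0.932-fold of Ring1B, with an interval of 0.662 to 1.31 that included 1. Ring1B and ubH2A reads were thus as many as those of Dzip3 here, although the ubH2A list had no peak at this place. A second Ring1B peak followed at chr6:88199938-88200229, with 93 Ring1B, 24 Dzip3, 44 ubH2A and 2 input reads. The other Dzip3 peak, chr6:88202615-88202815, was mostly Dzip3, with 61 reads against 10 of Ring1B, 18 of ubH2A and 8 of input.

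Around Gata3 the Dzip3 list had 2 peaks, none of them overlapped by a Ring1B peak. The taller, chr2:9852248-9852549 at 0.788 RPM, lay 40.6 kb upstream in an intron of Taf3, a subunit of the general transcription factor TFIID, and held 82 Dzip3, 12 Ring1B, 28 ubH2A and 3 input reads. This peak was nearer to a TSS of Taf3, at 10.8 kb, than to any of Gata3. The other lay 72.8 kb downstream of the nearest Gata3 start outside genes, with 65 Dzip3, 19 Ring1B, 37 ubH2A and 2 input reads. A Ring1B peak 75.7 kb downstream, chr2:9719402-9719641, held 73 Ring1B, 48 Dzip3, 45 ubH2A and 0 input reads, so Ring1B was at least 22.7-fold higher than input at the floor of 3 reads.

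The 3 ubH2A peaks lay upstream of Gata5 and Gata6, and both near Gata5 were nearer to Slco4a1, a transporter gene, so that none was left at Gata5 when each peak was given to its nearest gene alone. At Gata5, chr2:180137934-180138229, 68.5 kb upstream, held 99 ubH2A, 59 Dzip3, 35 Ring1B and 2 input reads, and lay next to a Ring1B peak, chr2:180137386-180137586, with 59 Ring1B, 56 ubH2A, 20 Dzip3 and 1 input reads. The second, chr2:180151763-180151963, held 54 ubH2A reads beside 12 of Ring1B, 10 of Dzip3 and 10 of input. At Gata6, chr18:10968719-10969019, 83.5 kb upstream and outside genes, held 78 ubH2A, 31 Ring1B, 11 Dzip3 and 10 input reads. No Dzip3 peak lay nearer than 142.7 kb to a TSS of Gata5 or 506 kb to that of Gata6.

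The promoter peaks were rich in GC and mixed in CpG content. Over the 28 Ring1B peaks within 10 kb the median GC content was 60.3% and the median ratio of observed to expected CpG was 0.534, beside 60.0% and 0.578 over all Ring1B peaks within 10 kb of a protein-coding TSS. A ratio above 0.6, 1 criterion of a CpG island, was met by 13 of the 28 (46.4%) and by 47.7% of all Ring1B peaks near protein-coding TSSs. By gene, the share was 5 of 7 at Gata6, 2 of 3 at Gata5, 2 of 4 at Gata3, 4 of 12 at Gata2 and 0 of 2 at Gata4. The tallest peaks of Gata3, Gata5 and Gata6 had ratios of 0.852, 0.874 and 0.808, whereas that of Gata4 had 0.309. At Gata2 the peaks over its start sites had 0.773 and 0.758, and those over the later exons between 0.309 and 0.470.

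The distant peaks were mostly poor in CpG, and many were made of repeated words. The 4 distant Ring1B peaks had ratios between 0.117 and 0.195, and 3 of the 4 Dzip3 peaks between 0 and 0.262. The Taf3 intron peak was the exception with 0.766, above 97.3% of all Dzip3 peaks. The 3 ubH2A peaks had ratios between 0.154 and 0.369. Medians over whole lists were 0.303 for Ring1B, 0.155 for Dzip3 and 0.154 for ubH2A. Low ratios are thus common in the Dzip3 and ubH2A lists and not particular to the Gata genes. The sequences printed above show a further difference by eye, so the share of 8-base words that occur more than once was counted in the central 200 bases of each peak. More than 20% of the words were repeated in 0 of the 28 promoter Ring1B peaks, in 3 of the 4 distant Ring1B peaks, in 3 of the 4 Dzip3 peaks and in 2 of the 3 ubH2A peaks. Among all Ring1B peaks this share was 14.1% within 10 kb of a protein-coding TSS and 36.4% farther out. It was 25.6% among all Ring1B, 34.2% among all Dzip3 and 28.9% among all ubH2A peaks. In the Dzip3 peak chr6:88199584-88199913 downstream of Gata2 the share of repeated words was 78.8% and in the Taf3 intron peak 69.9%, while in chr6:88202615-88202815 it was 0. Reads in such DNA can be hard to place, and the part of this in the distant peaks was not tested.

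**Figure D4:**
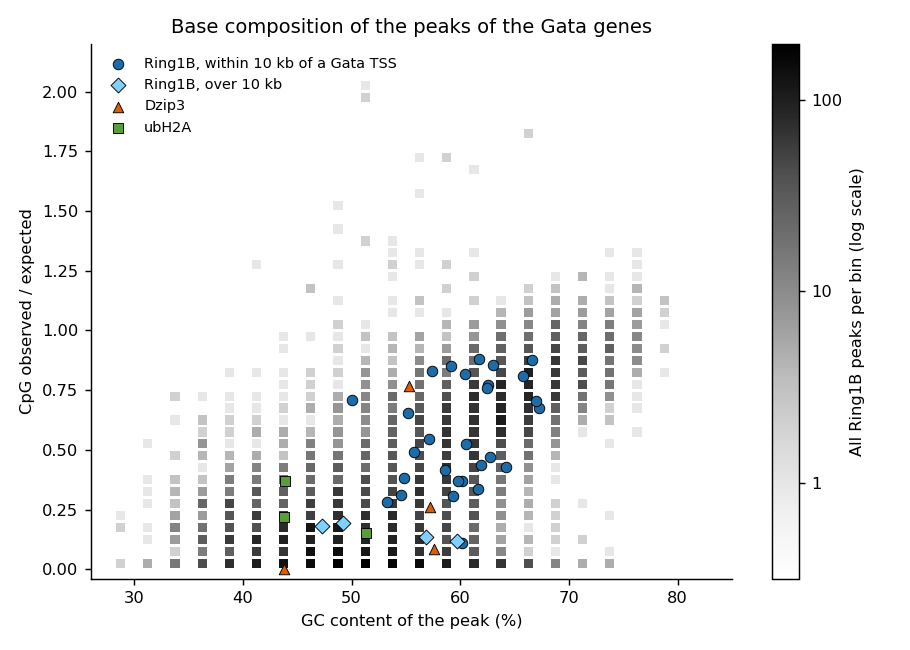
GC content of each peak (%, horizontal) against the ratio of observed to expected CpG (vertical) for the peaks of the 5 Gata genes, over all 10119 Ring1B peaks in grey (log scale of peaks per bin). Circles, the Ring1B peaks within 10 kb, reach ratios up to 0.881, while the diamonds of the 4 distant Ring1B peaks and the squares of the ubH2A peaks lie below 0.4, and 1 of the 4 Dzip3 triangles stands at 0.766.

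GATAA, a word that GATA factors recognize, was found in the Gata promoter peaks at a share near the background. In the central 300 bases, both strands searched, GATAA occurred in 3 of the 28 promoter peaks and the longer AGATAA, which contains it, in 1 of the 28. These are 10.7% and 3.57%, and among all Ring1B peaks near protein-coding TSSs the shares were 12.4% and 4.45%. Only these 2 words were counted, so other forms of the motif are not covered. The 3 peaks with GATAA were the one over the first Gata2 TSS and 2 upstream of Gata6, of which chr18:11051341-11051682 also held AGATAA. No match in these windows says nothing on whether a GATA factor binds there.

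Among 20 genes that work with GATA factors (Gata1, cofactors, and partners in blood, heart and endoderm), 15 had a Ring1B peak within 100 kb (75%, against the background of 50.3%) and 11 within 4 kb, where the background was 10.0%. A Dzip3 peak lay within 100 kb of 6 of the 20 (30%, background 36.4%) and within 4 kb of 0 (background 3.13%). Of the 18 on chromosomes with complete lists, 5 had a ubH2A peak within 100 kb (27.8%, background 39.1%) and 1 an input peak (5.56%, background 21.0%). Gata1, the X-linked regulator of red cells and the family's sixth member, had no peak of any library. The cofactor Zfpm1 (Fog1) had 3 Dzip3 and 3 Ring1B peaks within 100 kb, none of them within 4 kb, and its relative Zfpm2 (Fog2) had 1 Ring1B peak, at its promoter. The partners with the most Ring1B peaks were Cdx2, a trophectoderm factor, with 9 Ring1B and 2 Dzip3 peaks, and Runx1, a blood factor, with 9 Ring1B, 1 Dzip3 and 1 ubH2A peaks. Nkx2-5 of the heart followed with 7 Ring1B peaks and no Dzip3 peak.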

How the data were processed

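Each target had 1 library, sequenced by the authors and aligned to mm9 with the Illumina Analysis Pipeline, allowing 1 mismatch, and peaks were called separately for each with Partek Genomics Suite at a false discovery rate of 0.1. The deposited lists give, for each peak, read counts of all 4 libraries, the summit height in RPM, a p-value against input and the percent of the peak covered by peaks of the other lists. The authors' p-value served only to rank peaks within a list, and the fold column they deposited was not used. Library sizes were obtained as extended reads divided by RPM; they are larger than the depth of uniquely mapped reads given in the study's methods, and all scaled values rest on them.

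Rows with other than 18 columns, 1 each in the ubH2A and input lists, were left out, and genes on the 3 and 4 chromosomes these lists did not cover completely, none with a Gata gene of the 5, were not counted for them. Distances ran from a peak interval, as listed, to any annotated TSS. Ratios compare reads scaled to library size after adding 1 read to each library. The exact intervals are those of the ratio of Poisson counts without the added read, so they are not centered on the printed ratio. Base composition was read from the mm9 genome. Named were all 5 Gata genes, with every Dzip3 and ubH2A peak and the tallest and nearest Ring1B peaks; of the 20 partners, values are given for Zfpm1, Zfpm2 and those with the most Ring1B peaks, of which 1 gene, like the sequence of 1 peak, is not reported here. Further Ring1B peaks were described after their values were seen. Spi1 was matched through an older symbol. The genes and lists were chosen with earlier results of these data known, and the count of repeated words after the sequences were seen. Python 3.11.15 with pandas 2.3.3, scipy 1.17.1 and pysam 0.24.0 was used, and the functions were tested on simulated data. Other distances, peak subsets, pseudocounts, start sites and gene assignments were tried as alternatives.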

Additional observations from a re-analysis of the deposited data

How the results depend on the processing

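Of 195 alternative values, 163 moved by less than their counting interval or less than 1.5 times, and 32 moved more. With the distance cut to 10 kb or 4 kb, the Dzip3 peaks of Gata2 and Gata3 went from 2 each to 0, the ubH2A peaks of Gata5 and Gata6 from 2 and 1 to 0, and the numbers of Gata genes with either mark from 2 to 0. The shares of all protein-coding genes moved likewise, to 6.37% and 3.13% for Dzip3, 14.2% and 10.0% for Ring1B, 6.73% and 3.29% for ubH2A and 2.96% and 1.31% for input. With the stronger 50% of each list, Gata2 kept 1 Dzip3 peak, Gata5 2 Ring1B peaks and 1 ubH2A peak and Gata6 0 ubH2A peaks, 1 Gata gene had a ubH2A peak, and 0% of the Ring1B peaks overlapped a Dzip3 peak. Giving each peak only to its nearest protein-coding gene left 0 Dzip3 peaks at Gata2 and 1 at Gata3 (1 gene with any), 3 Ring1B peaks at Gata3, 0 ubH2A peaks at Gata5 and 1 gene with a ubH2A peak. These settings keep fewer peaks, a shorter distance or 1 gene a peak by construction. With 5 reads added in place of 1, the ratios to input in the tallest peaks of Gata2 fell to 57.6 for Ring1B, 5.26 for Dzip3 and 4.25 for ubH2A, and those of Ring1B to 29.95 at Gata3 and 91.6 at Gata6, inside their counting intervals but over 1.5 times lower. The number of Gata genes with a Ring1B peak was 5 of 5 under every alternative run. No paired analysis was possible because no target was sequenced more than once. Dzip3 reads, except at Gata4, and ubH2A reads exceeded input at Gata promoters where neither list had a peak. These reads were counted in peaks called from Ring1B reads, and whether the excesses are specific to the antibodies was not tested. At Gata3 the Dzip3 excess came largely from 1 peak and the ubH2A excess largely from another. The part of depth in these excesses was not tested.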

Other observations

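The genes most like the 5 Gata genes in their numbers of peaks and summed heights in the 4 lists within 100 kb were 1110004F10Rik, 1110006G14Rik and Gm4353, among 17710 protein-coding genes on chromosomes where all lists were complete. Likeness was the Euclidean distance of log2(value + 1) over 8 values, and the distance to the median of the Gata genes was 0.0320 for each of the 3. They are neighbours on chromosome 7 and share the same 5 Ring1B peaks, with 0 peaks of the other libraries. The Gata genes were less like their own median, at distances between 1.40 for Gata6 and 2.74 for Gata2, and stood at places 742 to 5108 in the same order. A median over 5 genes that differ from 2 to 14 Ring1B peaks is thus no profile that any 1 of them holds.

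Among the 20 partners, Hand2 of the heart and limb carried 1 Dzip3 peak of 3.17 RPM and a ubH2A peak of 1.60 RPM within 100 kb, besides 5 Ring1B peaks of up to 2.96 RPM. It was named after its values were seen. Both are taller than any Dzip3 or ubH2A peak near the 5 Gata genes, where the tallest reached 0.788 and 0.641 RPM.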
